A study of Mus musculus with 18 samples.

Results

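The expression of 10 genes that mark macrophages was followed through the response of the mouse carotid artery to wire injury. The genes were Lyz2, Aif1, Laptm5, Mpeg1, Csf1r, Adgre1, Cd14, Mrc1, F13a1 and Cd52, and they were taken by symbol from a count table of 35655 genes. All 10 were among the 10312 genes that passed the filter on low counts and were tested. The 18 libraries came from wild-type male C57/BL6 mice, with 4 libraries labelled pre-injury (day 0), and 4, 3, 4 and 3 libraries taken 7, 14, 21 and 28 days after injury. In the injured mice a wire was passed through the left common carotid, which strips the endothelium and is followed by growth of a neointima. Sections of the artery with neointima and outer elastic lamina were cut out by laser. RNA from up to 70 sections was sequenced by MACE, a method that counts the 3′ ends of polyadenylated transcripts. The labels give a mouse number for each library, and 3 of the numbers appear on both a day 0 and a day 21 library. Per the study's methods only the left side was injured and the right side of the animal was the control. The sources used here do not say whether the day 0 libraries are such right sides. The study also calls its samples pooled, so whether a library stands for 1 mouse is not known.

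Macrophages are phagocytes that either reside in the vessel wall from early life or arise from blood monocytes that enter after damage. Their identity is set by the growth factor receptor CSF1R and by the transcription factor PU.1, and they are recognised by lysosomal enzymes, scavenger and pattern receptors and surface glycoproteins. In an injured artery they clear debris and release factors that act on the smooth muscle cells of the wall. Lyz2 to Mpeg1 in the list above are found in most macrophages, while Mrc1 and F13a1 are often used for resident or alternatively activated cells, and Ccr2 and Ly6c2 mark cells that recently came from the blood. In bulk tissue, fewer macrophages and less of a transcript per macrophage cannot be told apart.

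Libraries held 440675 to 878310 counts, with a median of 659166. Levels are given as CPM, the count of a gene relative to the library total corrected by TMM. A level of 3 counts, the upper limit that a count of 0 allows, came to a mean of 4.12 CPM on day 0 and 5.39 CPM on day 7. Such limits cover counting error only. As a check of the labelled tissue, the 8 genes of contractile smooth muscle, the main cell of the arterial wall, together reached 32577 to 37862 CPM on day 0. The library of day 14 replicate 1 lay apart from the other day 14 libraries, with 23554 CPM of smooth muscle genes against 7373 and 8460 CPM, and with 973 CPM of the summed macrophage markers against 2217 and 1992 CPM.

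On day 7 the macrophage markers rose together. The summed level of the 10 genes was 99.2, 121, 241 and 386 CPM in the 4 libraries of day 0 and 4033, 4509, 4688 and 5436 CPM in those of day 7. Of the 10 genes, 9 were higher on day 7 than on day 0 in edgeR's quasi-likelihood test with Benjamini-Hochberg adjustment at 0.05, where 11.3% of all tested genes were called higher. The exception was F13a1. Aif1 and Mpeg1 had no more than 3 counts in every day 0 library. Only injured libraries let those 2 pass the filter, which favours their calls against day 0 on each later day. The same count, 9 of 10, was called higher on day 14, against 4.8% of the tested genes, and on day 21, against 5.92%. In each of these 3 comparisons all libraries of the day were above all of day 0 for 9 of the 10 genes, as they were for 13.6%, 10.7% and 9.31% of the tested genes. The median log2 fold change over the 10 genes was 4.19 on day 7, 3.41 on day 14 and 3.32 on day 21, beside 0.07, 0.05 and 0.07 over all tested genes. On day 28 only Aif1, Laptm5 and Mpeg1 were called higher than on day 0, 3 of 10 against 0.97% of the tested genes, although 7 of the 10 genes lay above day 0 in every day 28 library, as did 4.88% of the tested genes. The day 28 count depended on the libraries and the method. With DESeq2 it was 6. Leaving out day 0 replicate 1 gave 6 genes, and leaving out day 14 replicate 1 gave 5. Laptm5, Mpeg1 and Cd52 were also labelled in a plot of the study made from these libraries. All 10 genes were chosen with earlier results of these data known, so the direction of none of them is independent evidence.

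**Figure D1:**
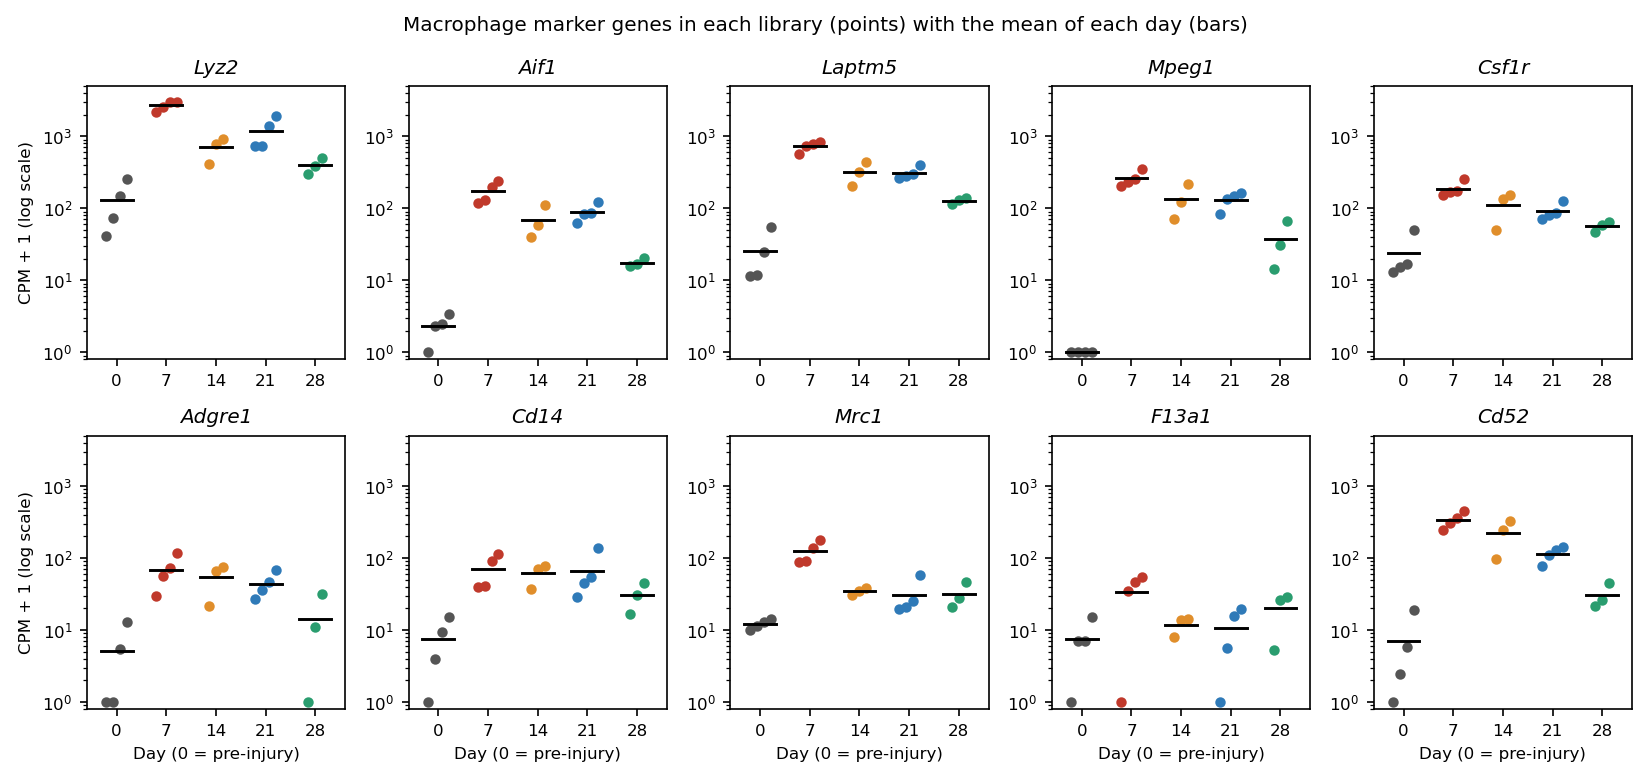
Level of each of the 10 macrophage marker genes in every library, as CPM + 1 on a log axis, by day after injury (0 is pre-injury). Points are libraries and bars are means of CPM. Mpeg1 had no count in any day 0 library, and F13a1 had none in 1 of the 4 day 7 libraries.

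Among the lysosomal and intracellular markers, Lyz2 (chr10:117111557-117118346, minus strand, GRCm39) encodes lysozyme, which cleaves bacterial cell walls. Its level was 255, 40.6, 73.0 and 147 CPM on day 0 and 2185, 2988, 2538 and 3033 CPM on day 7. In later libraries it was 411, 792 and 929 CPM (day 14), 726, 1937, 1404 and 726 CPM (day 21) and 300, 389 and 497 CPM (day 28). Every injured library therefore lay above all 4 libraries of day 0, and every day 7 library lay above all other libraries. The rise from day 0 was 4.39 ± 0.44 on the log2 scale (SE) on day 7, with an adjusted p of 1.7e-07 by edgeR. The difference between day 28 and day 0 was 1.62 ± 0.42 with an adjusted p of 0.0546. The neighbouring Lyz1, also a lysozyme gene, had 0 to 2 counts per library. The transcripts of both are 96.0% identical over 1268 aligned bases, and 2.27% of the windows of 75 bases in Lyz2 transcripts are shared with Lyz1, so reads from such windows could be assigned to either gene.

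Laptm5 (chr4:130638161-130663452, plus strand) encodes a lysosomal membrane protein of blood cells. It stood at 53.6, 10.8, 10.4 and 23.6 CPM on day 0 and at 559, 836, 791 and 738 CPM on day 7. The libraries of day 14 had 203, 441 and 317 CPM, those of day 21 had 300, 404, 263 and 282 CPM, and those of day 28 had 115, 137 and 128 CPM. The day 7 libraries were above all others, and the day 28 libraries were below those of days 7, 14 and 21 and above those of day 0. The log2 fold change from day 0 to day 7 was 4.90 ± 0.39, with an adjusted p of 1.09e-08 by edgeR. By day 28 it was 2.37 ± 0.39, with an adjusted p of 0.00296. The day 28 call was lost in a fit of the 2 days alone and with the mouse number as a block, where the adjusted p rose to 0.141.

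Mpeg1 (chr19:12438114-12442649, plus strand) encodes perforin-2, a pore-forming protein that acts on engulfed bacteria. No count of it was found in any of the 4 day 0 libraries. The libraries of day 7 had 203, 349, 253 and 231 CPM, and those of day 14 had 70.4, 214 and 121 CPM. Those of day 21 had 134, 163, 146 and 81.4 CPM, and those of day 28 had 30.2, 13.2 and 65.5 CPM. All injured libraries were thus above day 0, and those of day 28 were below all others after injury. Against the limit that a count of 0 allows in each day 0 library, the mean of Mpeg1 was at least 62.9-fold higher on day 7. It was at least 32.8-fold, 31.9-fold and 8.82-fold higher on days 14, 21 and 28. The adjusted p by edgeR was 1.36e-08 on day 7 and 0.000194 on day 28. Only injured libraries let Mpeg1 pass the filter, which favours its calls against day 0.

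Aif1 (chr17:35387384-35395053, minus strand) encodes IBA1, an actin-bundling protein that takes part in ruffling and phagocytosis. Between 0 and 2 counts were found in each day 0 library. The 4 libraries of day 7 had 130, 199, 235 and 116 CPM, and the 3 of day 14 had 38.4, 109 and 57.4 CPM. Those of day 21 had 123, 82.7, 60.8 and 83.8 CPM, and those of day 28 had 15.8, 14.9 and 19.2 CPM. The day 28 libraries were again below all others after injury and above all of day 0. Against a level of 3 counts in each day 0 library, the mean of Aif1 was 41.4-fold higher on day 7. It was 16.6-fold, 21.3-fold and 4.04-fold higher on days 14, 21 and 28. Since most day 0 libraries held a count of Aif1, 3 counts is no strict upper limit there. Only injured libraries let Aif1 pass the filter, which favours its calls against day 0. The day 28 difference had an adjusted p of 0.00657 by edgeR, which rose to 0.364 in a fit of the 2 days alone, and the call was also lost with the mouse number as a block.

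Among the receptors, Csf1r (chr18:61229714-61266535, plus strand) encodes the receptor for CSF1 and IL34, on which most macrophages depend for survival. Its level was 49.1, 14.3, 11.9 and 15.7 CPM on day 0 and 166, 255, 152 and 171 CPM on day 7. Later it was 49.6, 150 and 133 CPM (day 14), 125, 70.6, 80.6 and 86.1 CPM (day 21) and 46.0, 62.8 and 57.5 CPM (day 28). Day 0 replicate 1 lay above the other day 0 libraries and overlapped with day 28, while days 7, 14 and 21 did not overlap with day 0. The log2 fold change from day 0 to day 7 was 3.03 ± 0.41, with an adjusted p of 7.58e-06 by edgeR. Those to days 14, 21 and 28 were 2.29 ± 0.42, 2.01 ± 0.41 and 1.29 ± 0.43, with adjusted p values of 0.00139, 0.00257 and 0.149. The day 14 call was lost with the mouse number as a block, at an adjusted p of 0.0781, and without day 0 replicate 1 the day 28 difference was called. Exons of Csf1r overlap on the other strand with Hmgxb3, which had 0 to 28 counts per library, and whether reads were counted by strand is not given in the sources used here.

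Adgre1 (chr17:57665573-57790527, plus strand) encodes F4/80, the adhesion receptor by which mouse macrophages are commonly stained. It had 0, 0, 4.47 and 11.8 CPM on day 0 and 55.2, 117, 71.8 and 29.1 CPM on day 7. Its later values were 20.8, 74.1 and 65.2 CPM (day 14), 44.9, 66.6, 26.3 and 34.9 CPM (day 21) and 10.1, 0 and 30.4 CPM (day 28). Days 7, 14 and 21 were fully above day 0, and day 28 overlapped with day 0. The rise on day 7 was 4.00 ± 0.83 on the log2 scale with an adjusted p of 0.00101 by edgeR. That of day 14 was 3.65 ± 0.86 with an adjusted p of 0.00893, and it was lost without day 14 replicate 2 and with the mouse number as a block (adjusted p = 0.137).

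Cd14 (chr18:36858120-36859851, minus strand) encodes the co-receptor that hands bacterial lipopolysaccharide to TLR4. Its level was 0, 8.37, 2.98 and 14.4 CPM on day 0 and 90.8, 111, 39.9 and 38.7 CPM on day 7. The later libraries had 36.8, 70.6 and 77.0 CPM (day 14), 54.4, 44.4, 138 and 27.9 CPM (day 21) and 15.8, 29.8 and 44.7 CPM (day 28). The libraries of days 7, 14 and 21 overlapped among themselves, and all injured libraries were above all of day 0. Log2 fold changes from day 0 to days 7, 14 and 21 were 3.36 ± 0.64, 3.17 ± 0.67 and 3.29 ± 0.64, with adjusted p values of 0.000456, 0.00402 and 0.00189 by edgeR. The difference between day 28 and day 0 was 2.14 ± 0.69, with an adjusted p of 0.13. The 138 CPM of day 21 came from replicate 3, and without that library the day 21 fold change was 2.63 (adjusted p = 0.0124). The neutrophil genes S100a8 and S100a9 were at 242 and 240 CPM in the same library and at no more than 7.10 CPM in the other day 21 libraries, and their part in the Cd14 level, a gene that neutrophils also express, was not tested.

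Mrc1 (chr2:14234151-14336926, plus strand) encodes the mannose receptor CD206, a scavenger receptor. It was at 10.4, 12.0, 8.94 and 13.1 CPM on day 0 and at 135, 180, 89.7 and 88.8 CPM on day 7. Afterwards it was at 33.6, 30.0 and 37.8 CPM (day 14), 20.1, 24.2, 57.6 and 18.6 CPM (day 21) and 27.3, 19.8 and 46.3 CPM (day 28). All injured libraries were above all of day 0, and those of day 7 were above all others, while the 3 later days overlapped. The log2 fold change from day 0 was 3.44 ± 0.44 on day 7 with an adjusted p of 3.47e-06 by edgeR. Those of day 14 (1.59 ± 0.46, adjusted p = 0.0388) and of day 21 (1.42 ± 0.44, adjusted p = 0.0435) lay close to the threshold. The day 14 call was lost in 12 of 28 alternatives, with an adjusted p of up to 0.168, among them without any 1 of the day 0 and day 14 libraries and without day 7 replicate 1 or 2. The day 21 call was lost in 16 of 28, with an adjusted p of up to 0.265, among them without any 1 of the day 0 and day 14 libraries, without day 7 replicate 1, 2 or 3 and without day 21 replicate 2 or 3.

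Cd52 (chr4:133809759-133822401, minus strand) encodes a short glycoprotein anchored on the surface of lymphocytes and myeloid cells, and so is not particular to macrophages. It was at 17.9, 4.78, 1.49 and 0 CPM on day 0 and at 456, 356, 305 and 242 CPM on day 7. Later values were 96.0, 328 and 241 CPM (day 14), 109, 76.7, 128 and 142 CPM (day 21) and 44.5, 24.8 and 20.8 CPM (day 28). All injured libraries were above all of day 0, and day 28 was below every earlier injured library. The rise from day 0 to day 7 was 5.81 ± 0.56 on the log2 scale, with an adjusted p of 1.15e-07 by edgeR. The difference of day 28 from day 0 was 2.33 ± 0.62, with an adjusted p of 0.0589.

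F13a1 (chr13:37051152-37234277, minus strand) encodes the A subunit of coagulation factor XIII, a transglutaminase found in platelets, monocytes and tissue macrophages. Its level was 0, 5.98, 5.96 and 14.4 CPM on day 0 and 53.4, 44.9, 33.9 and 0 CPM on day 7. The later libraries held 12.8, 7.06 and 13.05 CPM (day 14), 18.9, 0, 14.8 and 4.65 CPM (day 21) and 4.31, 28.1 and 25.6 CPM (day 28). In 3 of the 4 day 7 libraries it was above every other library, and in day 7 replicate 4 it had no count, although Lyz2 was at its highest there. The day 7 difference was 2.27 ± 0.98 on the log2 scale with an adjusted p of 0.112 by edgeR. It was called without day 7 replicate 4, without the filter on low counts and with the mouse number as a block, and over 27 alternatives the adjusted p was 0.0276 to 0.286. Over the 18 libraries, the Pearson correlation of a gene's log2 CPM with the mean of the other markers was 0.84 to 0.96 for the 9 other genes and 0.35 for F13a1, a description that carries no test since all values share their libraries.

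The order of the days was similar but few neighbouring days could be told apart. Day 7 had the highest mean for all 10 genes and day 0 the lowest. Among the steps between neighbours in each gene's own order, those that passed the edgeR test were day 14 over day 28 (adjusted p = 0.0286) and day 28 over day 0 for Aif1, day 28 over day 0 for Laptm5 and Mpeg1, and day 7 over day 14 and day 21 over day 0 for Mrc1. For Lyz2, Csf1r, Adgre1, Cd14, F13a1 and Cd52 no such step passed. This does not show that the levels of those days were equal.

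After day 7 the mean levels of all 10 markers were lower, to different extents. On day 14, Lyz2 fell by 1.92 ± 0.44 and Mrc1 fell by 1.86 ± 0.44 on the log2 scale (edgeR adjusted p = 0.022 and 0.0261), 2 of 10 genes against 0.33% of all tested genes that were called lower. Their means were 26.5% and 27.4% of the day 7 mean. Cd14, in contrast, had 87.5% of its day 7 mean on day 14 and 94.3% on day 21, and Adgre1 had 78.3% and 63.3%, with neither called. The day 21 value of Cd14 rested on replicate 3, since the log2 fold change from day 7 was -0.07 with it and -0.69 without it (adjusted p = 0.965 and 0.612 by edgeR). Leaving out day 7 replicate 1 gave a count of 1, and leaving out day 7 replicate 2, day 14 replicate 1 or day 14 replicate 3 gave 0. DESeq2 called 4 genes.

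On day 21, Laptm5 (-1.23 ± 0.32, adjusted p = 0.0187), Mrc1 (-2.02 ± 0.40, 0.00223) and Cd52 (-1.58 ± 0.42, 0.0209) were called lower than on day 7 by edgeR, 3 of 10 against 3.23% of the tested genes. Leaving out day 0 replicate 1 gave a count of 5, and leaving out day 7 replicate 2 or day 21 replicate 1 gave 1. Mrc1 was called under every alternative, while the calls of Laptm5 and Cd52 were each lost in 5 of 28. The mouse number as a block ended both, at adjusted p values of 0.743 for Laptm5 and 0.548 for Cd52. That block takes up 3 of the day 21 libraries, so few are left for a comparison with day 7, and a lost call shows no mouse effect. Laptm5 lost its call without day 21 replicate 3 or 4 as well, and Cd52 without day 7 replicate 1 or day 21 replicate 2.

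By day 28 the decline had reached 7 of the 10 genes, against 8.05% of the tested genes called lower than on day 7 by edgeR. Cd52 fell by 3.48 ± 0.53 (adjusted p = 0.000114), Aif1 fell by 3.34 ± 0.44 (2.72e-05), Mpeg1 fell by 2.83 ± 0.46 (0.000295), Lyz2 fell by 2.76 ± 0.46 (0.000252), Laptm5 fell by 2.53 ± 0.38 (0.000114), Mrc1 fell by 1.98 ± 0.44 (0.00369) and Csf1r fell by 1.74 ± 0.42 (0.0063) on the log2 scale. Their day 28 means were 8.84% of the day 7 mean for Cd52, 9.76% for Aif1, 14.0% for Mpeg1, 14.7% for Lyz2, 17.3% for Laptm5, 25.3% for Mrc1 and 29.8% for Csf1r. Adgre1 stood at 19.8% (adjusted p = 0.0569), Cd14 at 42.9% (0.201) and F13a1 at 58.5% (0.68). For Mrc1 the day 28 mean of 31.2 ± 13.7 CPM (SD, n = 3) lay beside 30.1 ± 18.4 CPM (n = 4) on day 21 and 33.8 ± 3.92 CPM (n = 3) on day 14.

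From day 14 to day 21, 0 of the 10 genes were called lower by edgeR, where 0% of the tested genes were. At an unadjusted p under 0.05, 1 gene was lower, and DESeq2 called 0. From day 21 to day 28 Aif1 was called lower, falling by 2.39 ± 0.43 (adjusted p = 0.0077), 1 of 10 against 0.572% of the tested genes. DESeq2 called 5. Leaving out day 0 replicate 1 gave 5 genes, leaving out day 28 replicate 2 gave 0, and leaving out day 7 replicate 4, day 14 replicate 1 or 2, or day 28 replicate 1 or 3 gave 2. Of the 10 genes, 6 had all day 28 libraries below all day 21 libraries, where 8.3% of the tested genes did.

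**Figure D2:**
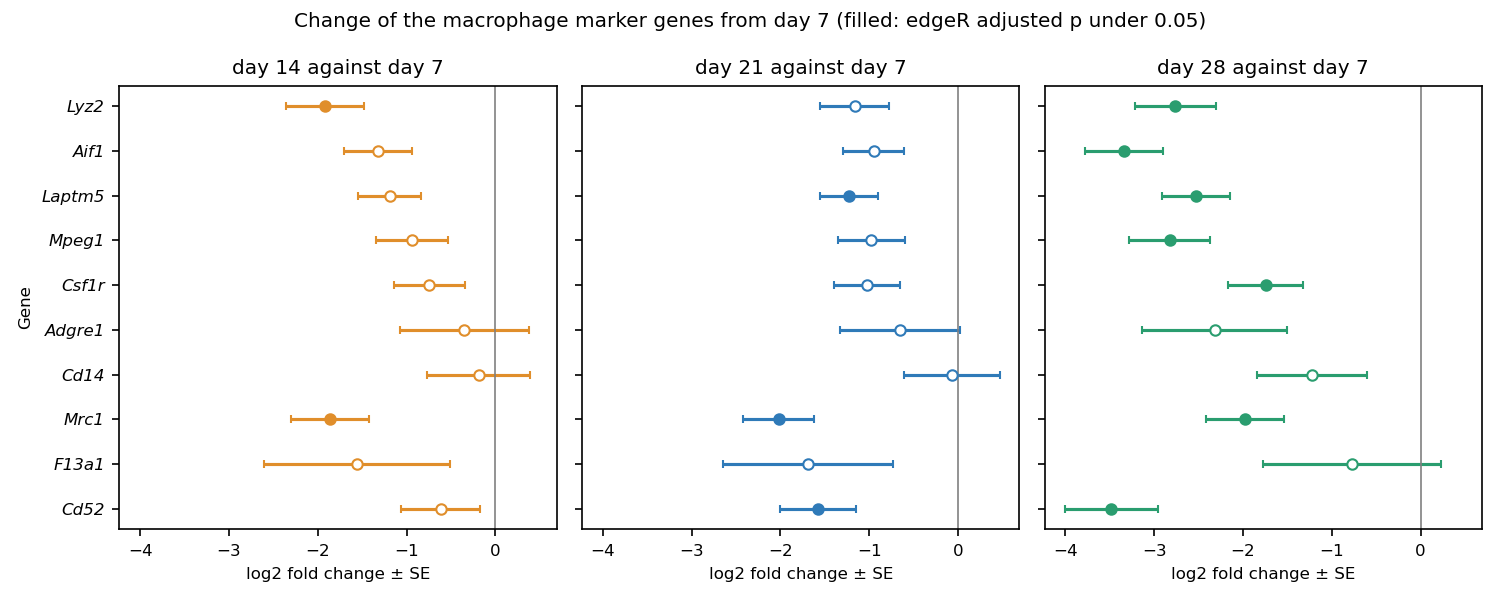
Log2 fold change of each gene from day 7 to days 14, 21 and 28, with the standard error of the fit over 18 libraries. Filled points passed the edgeR test. Lyz2 and Mrc1 were already lower on day 14, Cd14 lay near 0 on days 14 and 21 (on day 21 at -0.69 without replicate 3), and 7 of the 10 genes were lower on day 28.

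Most other genes of macrophages were higher after injury as well. Of 16 further genes found in most macrophages, 15, 14, 15 and 2 were called higher than on day 0 on days 7, 14, 21 and 28. The shares of all tested genes were 11.3%, 4.8%, 5.92% and 0.97%. Of the 16, 3 had no more than 3 counts in every day 0 library. Only injured libraries let those 3 pass the filter, which favours such calls. The exception on day 7 was Mertk, a receptor for dying cells, at 32.0 ± 14.9 CPM (SD, n = 4) on day 0 and 10.6 ± 5.05 CPM on day 7, with a log2 fold change of -1.60 ± 0.78 (edgeR adjusted p = 0.172). Against day 7, 3 of the 16 were called lower on day 21 and 14 on day 28, beside 3.23% and 8.05% of all tested genes. On day 14 none was called by edgeR, where 7 were lower at an unadjusted p under 0.05 and DESeq2 called 2. Day 0 had the lowest mean for all 10 markers, but for Mertk, Cd53 and Msr1 of this list the day 28 mean was lower still, at 6.76, 0.957 and 1.60 CPM. C1qb, a chain of complement C1q that macrophages secrete, was at 22.0 ± 17.6 CPM (SD, n = 4) on day 0, 539 ± 134 CPM (n = 4) on day 7 and 124 ± 10.9 CPM (n = 3) on day 28, and was still called higher on day 28 (adjusted p = 0.00472). C1qa, another chain, was at 43.9 ± 44.3, 523 ± 145 and 125 ± 41.0 CPM on these days (adjusted p = 0.0928 on day 28). Ctss, a lysosomal protease, rose from 6.89 ± 7.14 CPM to 533 ± 74.3 CPM on day 7. Tyrobp, an adaptor of activating receptors, rose from 14.3 ± 11.6 to 352 ± 56.9 CPM.

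Genes of recently recruited monocytes were at or near 0 in 3 of the 4 day 0 libraries and varied widely between injured libraries. Of 10 such genes, 7 had no count in any day 0 library. Of these 10, 6 passed the filter on low counts, and 6, 5, 2 and 1 were called higher than on day 0 on days 7, 14, 21 and 28, the last being F10. The shares of all tested genes were 11.3%, 4.8%, 5.92% and 0.97%. Of the 6, 4 had no more than 3 counts in every day 0 library. Only injured libraries let those 4 pass the filter, which favours such calls. The summed level of the 10 genes was 746, 518, 496 and 77.5 CPM in the 4 day 7 libraries, the last being replicate 4, the library without F13a1. It was 78.4, 822 and 157 CPM on day 14. Replicate 4 of day 7 and replicates 1 and 3 of day 14 were therefore low, although Lyz2 and Laptm5 were not low in that day 7 library. Ccr2, the chemokine receptor that draws monocytes into tissue, was at 52.1, 0, 1.49 and 0 CPM on day 0 and at 164, 133, 171 and 27.4 CPM on day 7. Its log2 fold change was 3.24 ± 0.94 (adjusted p = 0.0147). Plac8, abundant in Ly6c-high monocytes, was at 137, 110, 144 and 22.6 CPM on day 7 and had no count on day 28. Hp, haptoglobin, was without a count in the day 0 libraries. Its day 7 mean was at least 17.6-fold above their limit. That of Ms4a4c, which also lacked a count on day 0, was at least 8.29-fold above it. These folds hold for the means only. Day 7 replicate 4 had 9.69 CPM of Hp and 1.61 CPM of Ms4a4c, the latter below the day 0 limit of 4.12 CPM.

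Genes of resident arterial macrophages moved in both directions. Of 14 genes, 7 passed the filter, and on day 7 Stab1, Pf4, Clec10a and Ccl8 were called higher and Cbr2 lower, where 11.3% and 8.53% of all tested genes were. Clec10a had no more than 3 counts in every day 0 library. Only injured libraries let it pass the filter, which favours its call. Its day 7 levels were 21.4, 39.5, 15.9 and 4.84 CPM. On day 14 and on day 21 Cbr2 was the only one called, again lower, as were 1.42% and 2.93% of all tested genes, and between day 28 and day 0 it differed by -0.34 ± 0.39 on the log2 scale (edgeR adjusted p = 0.737). Stab1, a scavenger receptor that endothelial cells also make, was at 151 ± 42.1 CPM (SD, n = 4) on day 0, 422 ± 117 CPM on day 7 and 149 ± 35.5 CPM (n = 3) on day 14. Pf4, a chemokine of platelets and of some macrophages, was at 13.4, 4.78, 5.96 and 15.7 CPM on day 0 and at 265, 340, 134 and 149 CPM on day 7, and on day 14 it was at 12.8, 15.9 and 10.4 CPM. Its day 14 libraries thus overlapped with day 0, which those of 9 of the 10 markers did not. The platelet chemokine Ppbp, too low to be tested, had no count on day 0, 21.4, 12.6, 14.0 and 4.84 CPM on day 7, at most 3.53 CPM on day 14 and no count afterwards, and the part of platelets in the level of Pf4 was not tested. Cbr2, a carbonyl reductase, was at 326, 271, 204 and 345 CPM on day 0, above every library of days 7, 14 and 21, and fell by 2.06 ± 0.38 on the log2 scale on day 7 (adjusted p = 0.00031). Its day 0 mean of 287 CPM was above those of Lyz2 (129 CPM) and Csf1r (22.8 CPM). Like the summed contractile smooth muscle genes, Cbr2 had its highest mean on day 0 and its lowest, 68.1 CPM, on day 7. The part of other cells in the level of Cbr2 was not tested. Ccl8, a chemokine, was at 162, 268, 7.97 and 16.1 CPM on day 7. The other 7 genes were too low to be tested. Among them Lyve1, a hyaluronan receptor, was at 10.4, 17.9, 43.2 and 7.87 CPM on day 0, at 0, 0, 1.99 and 11.3 CPM on day 7 and without a count on day 14. Cd163, the receptor that takes up haptoglobin with haemoglobin, was at 10.5 to 16.7 CPM on day 0 and at no more than 8.28 CPM in any injured library. Both thus had lower means on day 7, while Fcna, a ficolin, had no count on day 0 and 7.12 to 29.9 CPM on day 7. Timd4, Cd209f, Cd209g and Vsig4 were at or near 0 in every library, with at most 5.98 CPM.

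**Figure D3:**
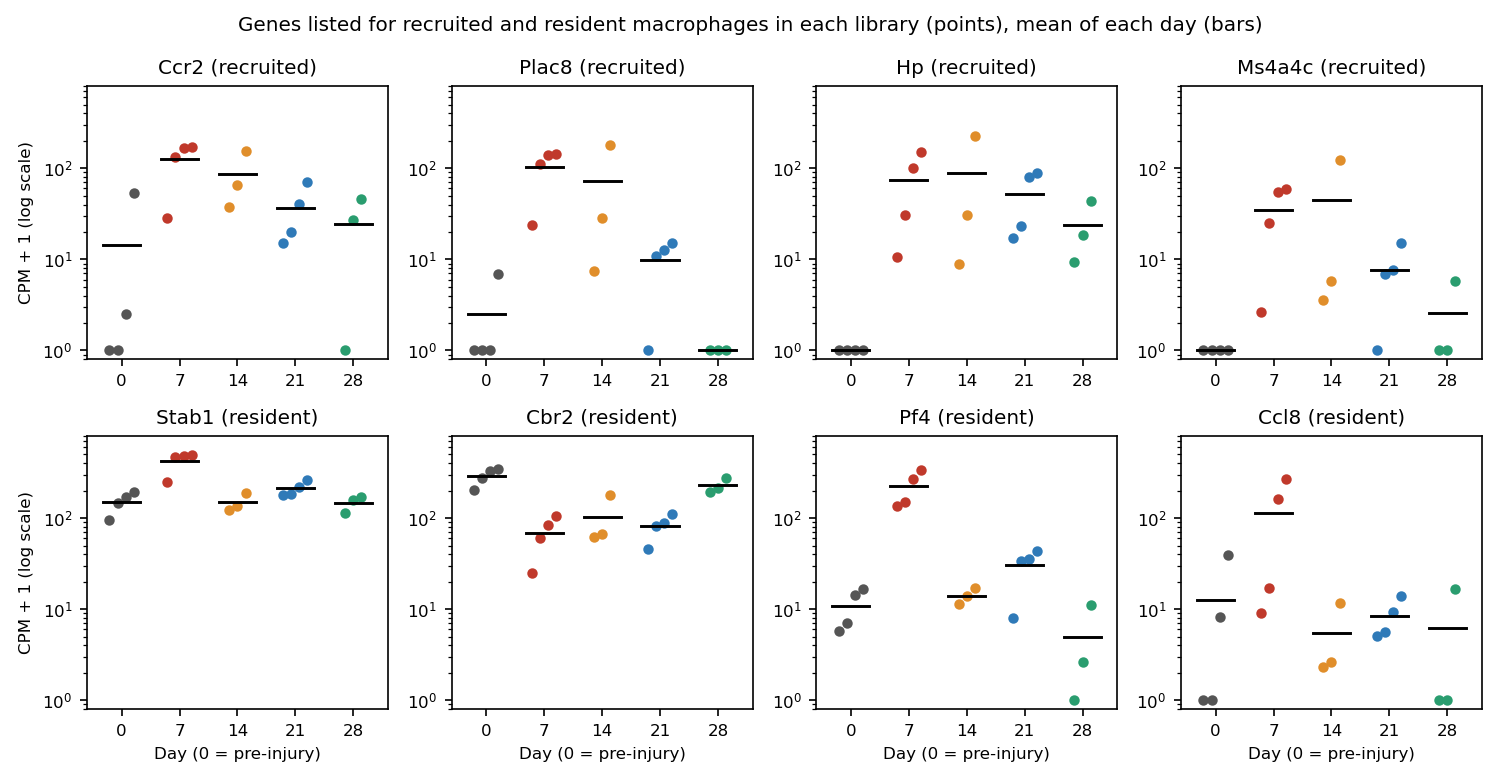
The 4 most abundant genes of the list for recruited monocytes (top) and of the list for resident arterial macrophages (bottom) in each library, as CPM + 1 on a log axis by day. Points are libraries and bars are means of CPM. The recruited genes were at or near 0 on day 0 in 3 of the 4 libraries and had a wide spread after injury, while Cbr2 was higher on day 0 than on days 7 to 21.

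The receptors were also set beside the genes they work with. Csf1, the ligand of CSF1R, was at 82.9 ± 29.8 CPM (SD, n = 4) on day 0 and 153 ± 86.9 CPM on day 7, and was not called (log2 fold change 0.88 ± 0.38, edgeR adjusted p = 0.115). Downstream of the receptor, the kinases Lyn and Fgr and the lipid phosphatase Inpp5d were called higher on days 7, 14 and 21, that is 3 of 5 tested genes of 6. Of all tested genes, 11.3%, 4.8% and 5.92% were called higher on these days. Lyn and Fgr had no more than 3 counts in every day 0 library. Only injured libraries let those 2 pass the filter, which favours such calls. On day 7, the mean of Lyn was 17.6-fold above a level of 3 counts in each day 0 library. Lyn had 1 count in day 0 replicate 4, so this is no strict bound. For Cd14, 7 of the 11 genes of its TLR4 pathway were tested. Of these only Tlr2, a related receptor for bacterial lipoproteins, was called on day 7, with a log2 fold change of 3.41 ± 0.72 (adjusted p = 0.00127), and on day 14. Irak1, a kinase of the pathway, was at 152 ± 47.6 CPM on day 0 and 219 ± 70.7 CPM on day 7 (adjusted p = 0.173), and Myd88, its adaptor, at 47.3 ± 23.0 and 81.2 ± 10.7 CPM (adjusted p = 0.196). Tirap, a further adaptor, differed by -0.58 ± 0.55 on the log2 scale (adjusted p = 0.542).

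Relatives of the markers in the same gene families moved in both directions. Of 16 such genes 10 were tested, and on day 7 Mrc2 and Kit were called higher and Tgm2 and Adgre5 lower, 2 of 10 each way, where 11.3% of all tested genes were called higher and 8.53% lower. Kit had no more than 3 counts in every day 0 library. Only injured libraries let it pass the filter, which favours its call. Mrc2, a collagen receptor of mesenchymal cells related to Mrc1, was at 64.5 ± 14.96 CPM (SD, n = 4) on day 0, 174 ± 47.5 CPM on day 7 and 344 ± 135 CPM on day 21. Its day 21 mean was thus above that of day 7, where the mean of Mrc1 was lower on day 21. Laptm4a, related to Laptm5, was at 1000.4 ± 59.6 CPM on day 0 and 824 ± 222 CPM on day 7 (log2 fold change -0.28 ± 0.20, edgeR adjusted p = 0.392). Pdgfrb, a receptor kinase of the family of Csf1r that mural cells express, was at 208 ± 42.0 CPM on day 0 and 245 ± 135 CPM on day 7 (adjusted p = 0.681). Tgm2, a transglutaminase like factor XIII, fell by 1.29 ± 0.25 on the log2 scale (adjusted p = 0.000447).

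Outside these lists, the 5 tested genes whose log2 CPM was most like the mean of the standardised markers over the 18 libraries were Gm49339 (Pearson r = 0.97), Coro1a (0.96), C3ar1 (0.96), Il10ra (0.95) and Lcp1 (0.95), given as a description with no test. Coro1a and Lcp1 encode actin-binding proteins of leukocytes, C3ar1 the receptor for complement C3a, and Il10ra the receptor for interleukin 10. C3ar1 had mean levels of 2.85, 136, 79.2, 55.3 and 17.0 CPM on days 0, 7, 14, 21 and 28. Gm49339 is marked as a readthrough gene that overlaps Lilrb4a and Lilrb4b on the same strand, so that its reads may belong to them. These genes had the day 7 maximum and the low day 0 level of the markers.

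The region before the transcription start was examined for 6 of the 10 markers, with entries from RefSeq's promoter table for GRCm38.p6. Csf1r, Adgre1, Cd14 and Cd52 were not examined, which does not show that RefSeq lacks a promoter for them. The core of the PU.1 motif, GAGGAA on either strand (TTCCTC when read on the opposite one), is shown in capitals within 250 bases before the start, since PU.1 is the factor by which macrophage genes are commonly described. The 4 regions are those of genes called higher on day 7 whose windows hold this core at several places, once or not at all, at chr2:14229164-14229413 (plus strand) for Mrc1, chr4:130913066-130913315 (plus strand) for Laptm5, chr17:35176053-35176302 (minus strand) for Aif1 and chr19:12460520-12460769 (plus strand) for Mpeg1, each written 5′ to 3′ on the strand of the gene.
Mrc1: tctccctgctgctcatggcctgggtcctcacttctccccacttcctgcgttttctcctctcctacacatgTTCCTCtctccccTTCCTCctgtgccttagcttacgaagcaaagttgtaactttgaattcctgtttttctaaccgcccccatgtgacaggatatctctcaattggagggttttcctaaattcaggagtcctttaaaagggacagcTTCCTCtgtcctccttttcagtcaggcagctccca
Laptm5: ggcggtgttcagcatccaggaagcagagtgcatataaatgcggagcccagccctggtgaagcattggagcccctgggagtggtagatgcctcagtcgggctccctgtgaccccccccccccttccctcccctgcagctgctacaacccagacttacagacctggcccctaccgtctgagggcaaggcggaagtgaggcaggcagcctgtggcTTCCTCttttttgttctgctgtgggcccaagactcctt
Aif1: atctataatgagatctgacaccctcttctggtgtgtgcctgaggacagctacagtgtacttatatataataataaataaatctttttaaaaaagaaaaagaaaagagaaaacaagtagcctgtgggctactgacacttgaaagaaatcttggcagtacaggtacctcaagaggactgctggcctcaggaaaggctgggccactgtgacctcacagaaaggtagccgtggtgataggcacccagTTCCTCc
Mpeg1: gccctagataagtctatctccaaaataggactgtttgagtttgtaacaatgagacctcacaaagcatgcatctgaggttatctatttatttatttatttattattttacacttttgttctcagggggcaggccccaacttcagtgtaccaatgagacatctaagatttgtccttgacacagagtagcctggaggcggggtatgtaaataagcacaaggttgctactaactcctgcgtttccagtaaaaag

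The core occurred at 3 places for Mrc1, at 1 place for Laptm5 that begins 38 bases before the start and at 1 for Aif1 that begins 7 bases before it, and it was not found for Mpeg1 or Lyz2. F13a1 has 2 entries, of which 1 holds it. Of all 32851 promoters in the table, 23.3% hold these letters in the same window. The letters TGANTCA (AP-1) and TTGCNNAA (C/EBP), searched on both strands, were found in none of the 7 entries searched for the markers, and in 6.75% and 9.56% of all promoters. A match is not a binding site, and a missing match says nothing about the factor.

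Other cell types moved with the days as well. The 8 contractile smooth muscle genes were all called lower on day 7 than on day 0 and all called higher on day 28 than on day 7 by edgeR, where 8.53% and 6.4% of all tested genes were. These directions were opposite to those of the markers that were called. Their summed level was 32577 to 37862 CPM (day 0), 1536 to 7113 CPM (day 7), 7373 to 23554 CPM (day 14), 8392 to 21791 CPM (day 21) and 20162 to 28568 CPM (day 28). CPM is relative to the library total corrected by TMM. As far as TMM does not correct for it, a loss of smooth muscle RNA raises the level of other genes. The part of this in the results was not tested. Day 21 replicate 3 had 21791 CPM of smooth muscle genes and 2320 CPM of the summed markers, beside 8392 to 14822 CPM and 1487 to 2870 CPM in the other day 21 libraries. Neutrophil genes rose too. Of 12, 4 were tested and all 4, Cxcr2, S100a8, S100a9 and Csf3r, were called higher on day 7, where 11.3% of all tested genes were. Of these, 3 had no more than 3 counts in every day 0 library. Only injured libraries let those 3 pass the filter, which favours such calls. The list summed to 26.8 to 101 CPM on day 0 and 231 to 798 CPM on day 7. Cxcr2 alone was at 26.8 to 99.9 CPM on day 0 and 42.0 to 179 CPM on day 7, while the other 3 were at no more than 2.62 CPM on day 0. On day 21 the sum was 597 CPM in replicate 3 and 111 to 156 CPM in the others, where Cxcr2 alone was at 91.1 to 142 CPM. Ly6g had 1 count in all 18 libraries and Mpo none. Of the T and NK cell genes none of 10 passed the filter, and their sum was 0 to 45.4 CPM on day 0 and 32.3 to 69.4 CPM on day 7. The summed platelet genes were at 49.2 to 95.6 CPM on day 0 and 46.7 to 79.7 CPM on day 7, and of 8 genes only Gp1bb was tested and not called. That gene alone made up 49.2 to 93.2 CPM of the sum on day 0 and 28.8 to 58.1 CPM on day 7, while Ppbp was found after injury only. The fibroblast genes had a sum of 2382 to 3585 CPM on day 0, among them Pi16 and Dpt, which are typical of the adventitia, at means of 383 and 351 CPM. Among the remaining lists on day 7, 1 of 2 tested dendritic cell genes (Cd209a), 1 of 7 fibroblast genes (Lum) and 2 of 7 endothelial genes were called higher, 4 fibroblast genes and 1 endothelial gene were called lower, and the only B cell gene tested, Ighm, was not called. Of the mast cell genes only Kit was tested, which was called higher, and Cpa3, Tpsb2 and Mcpt4 had no count on day 7. Kit, Cd209a and the endothelial gene Kdr had no more than 3 counts in every day 0 library, so the filter favours calls of them too. The part of the other cell types in the levels of Cd52, F13a1 and Pf4, which they can also express, was not tested.

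**Figure D4:**
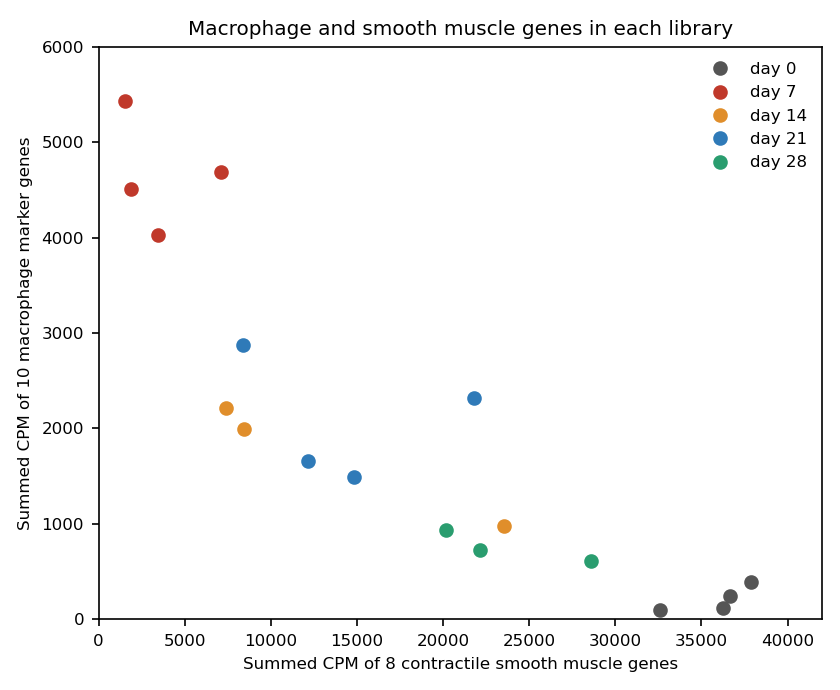
Summed CPM of the 10 macrophage marker genes against the summed CPM of 8 contractile smooth muscle genes, each point a library, coloured by day. The 4 day 7 libraries lie between 4033 and 5436 CPM of the markers, above all others, and the 4 day 0 libraries at the lower right with 99.2 to 386 CPM.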

How the data were processed

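MACE libraries were made from laser-dissected carotid tissue of 5 days. Per the study's methods, PCR copies were collapsed by molecular identifiers, and reads were assigned to mm39 transcripts with Salmon 1.9.0. For each gene, estimated counts (expected counts) were deposited as whole numbers by the authors, and these were the input of every test. The authors also deposited a normalised signal from DESeq2 1.36.0, which was used only in the alternative named last. In it the values of Csf1r, unlike nearly all those of the other markers, depart from the factor of their library by over 1%, at 0.510 to 1.10 times. Annotation release and strand setting are not given in the sources used here. Single-cell libraries of the study were not used here.

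The quasi-likelihood test of edgeR 4.0.16 (R 4.3.3, filterByExpr by day, TMM) was run in a common fit of all 18 libraries. P-values were adjusted by the Benjamini-Hochberg method across the 10312 genes that passed the filter, with calls at 0.05. Whether the libraries of a day come from separate animals rests on the mouse numbers in the labels, and the study calls its samples pooled, so p-values measure the spread between these libraries. Of all 153 pairs of libraries none was alike within sampling noise (chi-square per degree of freedom of at least 3.57). For a gene with no more than 3 counts in every library of a group, the fold is of means and against 3 counts per library. This is a bound only where no count was found. A gene this low in a group could pass the filter only through other groups, which favours a call against that group. Libraries with the same replicate number had a median residual correlation of -0.0057 over 33 pairs (-0.132 to 0.205). Those with the same mouse number had -0.0067 to 0.0554 over 3 pairs, too few to decide whether such libraries share an animal. The steps were tested on simulated data.

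The members, the lists and the tests were chosen with earlier results of these data known. Named genes were to be all 10 members, from each other list the 4 genes with the highest mean CPM over all libraries, and the 5 genes most like the members. Lists of other cell types are mostly given by counts and sums, and not all of their 4 genes are named. Genes named outside this rule (Mertk, Cd53, Msr1, F10, Ly6c2, Lyve1, Cd163, Fcna, Clec10a, Timd4, Cd209f, Cd209g, Vsig4, Fgr, Adgre5, Kit, Lyz1, Pi16, Ly6g, Mpo) complete a count or a list and were chosen after their values were seen. Of the lists, 1 gene is not reported here. Positions are from GENCODE on GRCm39. Promoters are from RefSeq on GRCm38.p6. Alternatives were DESeq2 1.42.0, other scalings, no filter, a threshold of 0.01, the 2 days alone, blocks for replicate or mouse number, counts thinned to 440675 per library, each library left out, and, chosen after seeing the data, DESeq2 with the deposited factors. The mouse block takes up the day 0 and day 21 libraries of the 3 shared mouse numbers, so few are left to compare these days with others.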

Additional observations from a re-analysis of the deposited data

Results flagged for a closer look

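Of 29 groups of 4 libraries that were tested for a value far from the others, 2 stood out, where chance gives about 1 in 20. In Csf1r, day 0 replicate 1 had 49.1 CPM and the next library of that day 15.7 CPM. The same library had the highest day 0 level of Lyz2, Laptm5, Cd52 and Ccr2, and no count of Aif1, Mpeg1, Adgre1, Cd14 or F13a1. In Mrc1, day 21 replicate 3 had 57.6 CPM and the next library 24.2 CPM. That library also had the highest day 21 level of Cd14, at 138 CPM, and of the summed neutrophil genes, at 597 CPM against 111 to 156 CPM in the other day 21 libraries, with S100a8 at 242 CPM and S100a9 at 240 CPM. The part of these cells in both values was not tested.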

How the results depend on the processing

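Of 1955 log2 fold changes of the 10 genes over 28 alternatives, 1845 kept direction and call, 53 lost a call, 48 gained one and 9 turned direction. The count of markers called higher on day 28 than on day 0, 3 in the report, was 6 with DESeq2 or without the filter on low counts, 5 with library totals only, 1 with the 2 days alone or the mouse number as a block, 6 with DESeq2 and the deposited factors, chosen after seeing the data, and 3 to 6 with each library left out. Called lower on day 14 than on day 7 were 2 genes, 4 with DESeq2 or the deposited factors, 0 at a threshold of 0.01, and 0 to 3 with a library left out. Called lower on day 21 than on day 7 were 3 genes, 6 without the filter or with the 2 days alone, 1 with the mouse block or at 0.01, and 1 to 5 with a library left out. Called lower on day 28 than on day 21 was 1 gene, 5 with DESeq2, the deposited factors or no filter, 2 with upper-quartile scaling or the mouse block, 3 with the 2 days alone or thinned counts, and 0 to 5 with a library left out. Other counts with a library left out were 9 to 10 (day 7 over day 0), 7 to 9 (day 14 over day 0), 8 to 9 (day 21 over day 0), 7 to 8 (day 28 under day 7) and 0 to 0 (day 21 under day 14). The replicate block called 9, 8, 8 and 3 genes higher on days 7, 14, 21 and 28 than on day 0, 2, 3 and 7 lower on days 14, 21 and 28 than on day 7, 0 lower on day 21 than on day 14 and 1 lower on day 28 than on day 21, and it ended the calls of Mrc1 on days 14 and 21 against day 0. Leaving out a library turned the direction of uncalled differences from day 7, which ranged from -0.63 to 0.069 (Adgre1, day 14), from -0.39 to 0.14 (Cd14, day 14) and from -0.69 to 0.26 (Cd14, day 21). Of the 16 further macrophage genes, 2 were called higher on day 28 than on day 0 and 6 with DESeq2, and of the recruited monocyte genes 1 and 2. The causes were not tested. Other scalings moved the median log2 fold change of all genes by at most 0.0934. With 0 to 12 counts of most markers in day 0 libraries, depth limits the folds against day 0, and genes with few counts such as F13a1 and Adgre1 have wide errors.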
